A study of Arabidopsis thaliana with 36 samples.

Results

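Nuclear genes for proteins of the thylakoid lumen were followed through ribosome loading and through the day in Arabidopsis thaliana. The genes were 37 listed AGI codes, and 18 of them were measured by a probe set (a group of array probes) assigned to that gene alone. Each of the 18 had 1 such probe set with a mean of at least 4 (log2) over all arrays, and the dimmest, AT5G46390, averaged 6.80. They are 18 of the 6846 genes tested and of the 13356 that such a probe set covers. The other 19 codes are not analysed here, among them the photosystem II subunit genes PSBO2, PSBP-1, PSBQA and PSBQ-2, the immunophilin genes FKBP13 and CYP38, and TLP18.3 and DEG8. The measured genes therefore stand mainly for auxiliary lumen proteins and not for the extrinsic subunits of photosystem II.

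The seedlings were wild type of the ecotype Columbia, 10 days old, raised on agar plates with Murashige and Skoog salts and 1% sucrose, with days of 16 h and nights of 8 h. Aerial parts were taken at Zeitgeber time 0, 6, 12 and 18 (ZT, hours after lights on), of which ZT18 lay in the dark. The RNA of each extract was separated by ribosome association into non-polysomal, small polysomal and large polysomal RNA. These hold mRNA outside polysomes, with few ribosomes or with many. Each of the 12 groups of time and fraction had 3 replicates, giving 36 arrays from 12 extracts. The labels do not say that replicates were grown apart, so the spread behind each p-value may be technical.

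The thylakoid lumen is the aqueous space enclosed by the photosynthetic membrane of the chloroplast. Its proteins are encoded in the nucleus, made on cytosolic ribosomes and carried across the chloroplast envelope and then the thylakoid membrane by the Sec or Tat pathway. Many of them help to build, fold, trim or repair photosystem II, the complex that oxidises water, and others serve the NDH complex of cyclic electron flow. Polysome loading of their mRNAs thus concerns cytosolic translation before import.

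Replicate arrays of a group correlated at 0.934 to 0.988 over all genes. Of 8 genes listed as markers of green tissue 2 were measured, and both were bright (RCA 12.6 and SBPASE 12.8, mean log2). Of 11 root markers 3 were measured. EXPA7 (2.20) and AT3G49960 (2.21) were at the bottom of the range, but PYK10, a glucosidase abundant in roots, averaged 9.95. The measured root markers thus disagreed, and the source of the PYK10 RNA was not tested. Poly-A control transcripts added to the RNA differed by -1.82 ± 0.82 (SD, n = 12) between large polysomal and non-polysomal RNA, below 0 in 12 of 12 extracts. Hybridisation controls differed the same way, by -0.75 ± 0.22 (SD, n = 12).

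Setting large polysomal against non-polysomal RNA asked how strongly the lumen transcripts were loaded with many ribosomes. Most were richer in large polysomes, but relatives could differ in direction. Of the 18, 11 were higher in large polysomes, 4 were lower and 3 did not pass (limma, adjusted p under 0.05). Among all genes tested 40.2% were higher, 37.5% lower and 77.8% called in either direction. The median difference of the 18 was 0.35 on the log2 scale and that of all genes 0.03. Without regard to sign the medians were 0.47 for the 18 and 0.65 for all genes. The extremes of the 18, 1.55 and -1.60, lay within the 5% to 95% range of all genes (-1.80 to 1.58). All differences are relative to the average mRNA of an array. Both fractions come from the same extract, and each value is an average over its cells. Other quantities differed between the same fractions. The spike-in and hybridisation controls were lower in large polysomal RNA, as given above, and plastid-encoded transcripts (69 genes) were lower by a mean of -1.25 ± 0.64 (SD), in 12 of 12 extracts. The gap between the 3' and 5' probe sets of actin, a sign of RNA integrity, was wider in large polysomal RNA by 0.93 ± 0.34 in 12 of 12 extracts, and that of GAPDH by 0.23 ± 0.51 in 9 of 12. The summed log2 level of the 2 green tissue markers was higher by 0.36 ± 0.44, in 10 of 12. PYK10 read 9.38 in non-polysomal and 10.6 in large polysomal RNA. The part of all these in the differences of the 18 was not tested.

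The pentapeptide-repeat protein genes, whose products have a repeated 5-residue motif and no settled role, were the most strongly loaded. For AT5G53490 the 12 non-polysomal values ran from 8.35 over a median of 8.96 to 9.51 (log2). Its 12 large polysomal values ran from 9.54 over a median of 10.6 to 11.2. The fractions did not overlap over the whole day, and every extract was higher in large polysomes. The difference was 1.55 ± 0.14 (SE, 12 extracts), or 2.93-fold, with an adjusted p of 1.1e-11 in limma. For AT2G44920 the non-polysomal values ran from 6.72 over a median of 7.71 to 8.28. Its large polysomal values ran from 8.36 over a median of 9.28 to 9.72, again without overlap. The difference was 1.45 ± 0.13, or 2.72-fold, higher in 12 of 12 extracts (limma, adjusted p 1.1e-11).

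Among the immunophilins, enzymes that turn proline bonds and help proteins fold, the loading ran in opposite directions. AT3G60370, of the FKBP type, was the least loaded gene of the 18. Its non-polysomal values ran from 8.00 over a median of 8.59 to 9.03, and its large polysomal values from 6.65 over a median of 6.98 to 7.19. No large polysomal value reached the lowest non-polysomal value. The difference was -1.60 ± 0.10 (SE, 12 extracts), or 3.04-fold lower, in 12 of 12 extracts (limma, adjusted p 1.5e-15). AT5G13410, also of the FKBP type, was higher in large polysomes by 1.26 ± 0.11 in 12 of 12 extracts. Other FKBP-type genes were higher by smaller amounts, AT1G20810 by 0.36 ± 0.10, AT3G10060 by 0.34 ± 0.11 and AT2G43560 by 0.30 ± 0.11. The cyclophilin-type gene AT3G15520 was higher by 0.37 ± 0.11. AT1G18170, at 0.12 ± 0.11, did not pass, with a 95% interval from -0.10 to 0.34. The call of AT2G43560 ended with arrays centred on their medians (adjusted p 0.072 in limma) and without replicate 3 (0.13). That of AT3G10060 ended without replicate 2 (0.053).

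The PsbP-domain genes, relatives of the PsbP subunit that stabilises the water-oxidising site, were split, with 2 of 3 lower in large polysomes and 1 that did not pass. For AT1G76450 the non-polysomal values ran from 12.0 over a median of 12.3 to 12.8, and the large polysomal values from 11.0 over a median of 11.4 to 11.7. The fractions were apart in every extract, by -0.98 ± 0.09 or 1.97-fold (limma, adjusted p 1.5e-11). AT2G28605 was lower by a difference of -0.56 ± 0.11 in 12 of 12 extracts. AT1G77090, at 0.20 ± 0.13, did not pass (adjusted p 0.16, 95% interval -0.07 to 0.46). PSB27 (AT1G03600), a factor bound to photosystem II during assembly and repair, was higher in large polysomes by 0.38 ± 0.07 in 11 of 12 extracts.

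The carboxy-terminal processing proteases belong to the family that trims the D1 reaction centre protein. They differed in sign. AT4G17740 was higher in large polysomes by 0.39 ± 0.13, a call that ended without replicate 1 (adjusted p 0.078 in limma). AT5G46390 was lower, at -0.89 ± 0.15, in 11 of 12 extracts. Of the remaining lumen proteins, AT4G02530, known from photosystem II repair in high light, was higher by 1.25 ± 0.10 and AT4G24930 by 0.74 ± 0.09, each in 12 of 12 extracts. AT5G52970 showed no difference that passed (0.00 ± 0.11, 95% interval -0.21 to 0.22). Counted by extracts, 6 of the 18 were higher in 12 of 12 (25.2% of all genes) and 3 were lower in 12 of 12 (24.4%).

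**Figure D1:**
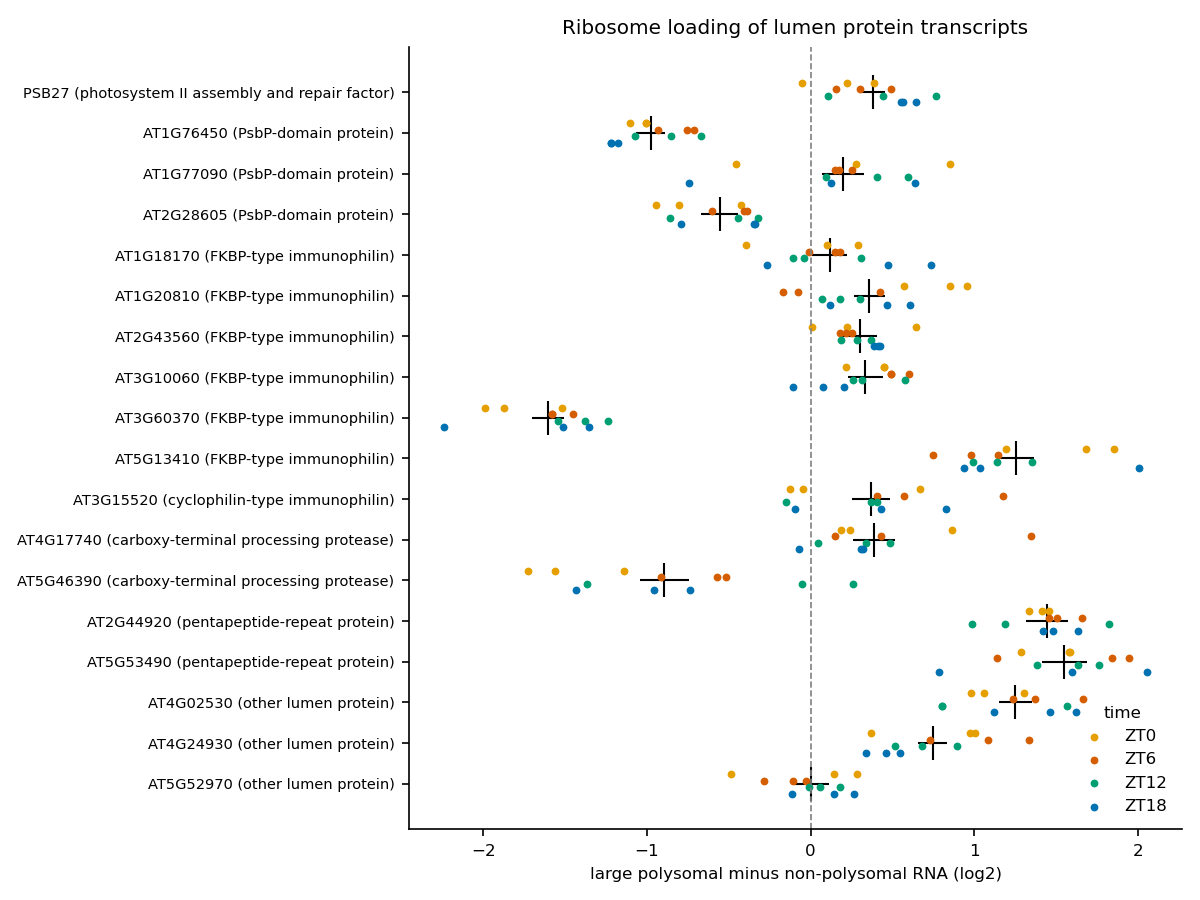
Each point is 1 extract's difference of large polysomal minus non-polysomal RNA (log2), coloured by Zeitgeber time. Black marks are the mean of 12 extracts with the SE of limma's fit, which did not pair the fractions. AT5G53490 and AT2G44920 lie right of 0 in every extract and AT3G60370 and AT1G76450 left of 0, while PsbP-domain and FKBP-type genes fall on both sides.

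Small polysomal RNA separated the loaded genes further. Against non-polysomal RNA, 5 of the 18 were higher in small polysomes (33.5% of all genes), 5 were lower (29.2%) and 8 did not pass; 62.7% of all genes were called. Higher were AT4G02530 by 0.45 ± 0.10, AT4G24930 by 0.43 ± 0.09, AT5G53490 by 0.34 ± 0.14, AT5G13410 by 0.33 ± 0.11 and AT2G44920 by 0.31 ± 0.13. AT5G53490 alone of the 18 was higher in 12 of 12 extracts (17.2% of all genes), by 0.05 at the lowest, 0.29 at the median and 0.76 at the highest. The calls of AT5G53490, AT5G13410 and AT2G44920 ended with arrays centred on their medians (adjusted p 0.21, 0.13 and 0.24 in limma). This scaling moved the median over all genes by -0.13, and it took the share of higher calls among called genes from 53.4% to 40.7%. Between these fractions the gap of the GAPDH probe sets differed by 0.94 ± 0.48 (SD), wider in small polysomal RNA in 12 of 12 extracts, that of actin by 0.45 ± 0.36, and the summed green markers by -0.42 ± 0.41, and their part was not tested.

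Lower in small polysomes were AT3G60370, AT1G76450, AT5G46390, AT3G10060 and AT2G43560. For AT3G60370 the 12 differences ran from -1.62 over a median of -1.07 to -0.56, with a mean of -1.02 ± 0.10 (limma, adjusted p 2.4e-10). For AT1G76450 they ran from -1.18 over -0.88 to -0.74, with a mean of -0.91 ± 0.09 (adjusted p 3.1e-10). Every extract lay below 0 in both genes, and so it did in the other genes of this direction, 5 of the 18 (16.8% of all genes). These differed by -0.63 ± 0.15 (AT5G46390), -0.41 ± 0.11 (AT3G10060) and -0.30 ± 0.11 (AT2G43560). Without replicate 1 the 10 calls between small polysomal and non-polysomal RNA came to 6, and the share of all genes in that run is not given here.

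Between small and large polysomes 11 of the 18 were higher in large (30% of all genes), 2 were lower (31.2%) and 5 did not pass; 61.2% of all genes were called. Here the pentapeptide-repeat genes again differed most. For AT5G53490 the 12 differences ran from 0.49 over a median of 1.20 to 1.81, with a mean of 1.21 ± 0.14 (limma, adjusted p 7.3e-09). For AT2G44920 they ran from 0.49 over 1.06 to 1.84, with a mean of 1.14 ± 0.13 (adjusted p 6.7e-09). Both genes were thus higher in large than in small polysomes in every extract. AT5G13410 followed with 0.92 ± 0.11 and AT4G02530 with 0.80 ± 0.10.

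AT2G28605, a PsbP-domain gene, went the other way. Its 12 differences between large and small polysomes ran from -1.11 over a median of -0.76 to -0.44, with a mean of -0.74 ± 0.11 (limma, adjusted p 1.4e-06). For AT3G60370 they ran from -0.95 over -0.62 to -0.19, with a mean of -0.59 ± 0.10 (adjusted p 4.5e-06). No extract of either gene was above 0. The call of AT4G17740, at 0.29 ± 0.13, ended with cyclic loess scaling (adjusted p 0.14 in limma) and without any of the 3 replicate numbers (0.076 to 0.20).

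**Figure D2:**
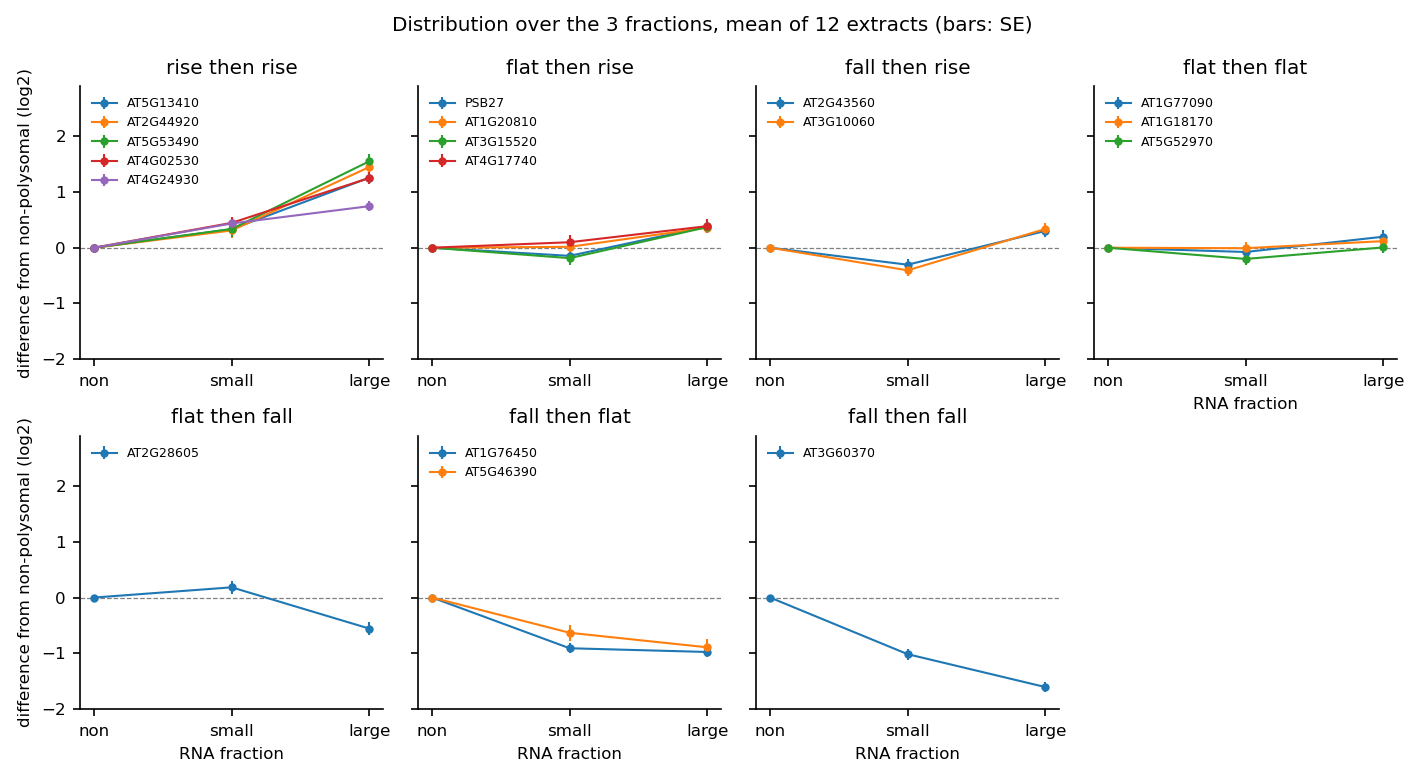
Lines give each gene's mean log2 difference from non-polysomal RNA in small and large polysomal RNA (12 extracts, bars SE of the unpaired fit). Panels are by the calls of the 2 steps, where rise and fall are called differences and flat is a step that did not pass. AT5G13410, AT2G44920, AT5G53490, AT4G02530 and AT4G24930 climb through both steps, and AT3G60370 is the only gene that falls in both.

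By these 2 steps the 18 genes took 7 of 9 possible shapes. A called rise at both steps was seen in 5 genes (14.8% of all genes) and a rise between small and large polysomes alone in 4 (10.6%), PSB27, AT1G20810, AT3G15520 and AT4G17740. Of the 5 first steps, 3 did not hold under every alternative, beside the scaling named above. That of AT2G44920 did not pass without any of the 3 replicate numbers (limma, adjusted p 0.058, 0.17 and 0.073), that of AT5G53490 without replicate 1 (0.14) or 2 (0.10), and that of AT5G13410 without replicate 1 (0.096). Those of AT2G44920 and AT5G53490 also ended when dim genes were kept in (0.066 for both). The second step of AT1G20810 did not pass without replicate 3 (limma, adjusted p 0.065). With arrays centred on their medians, PSB27 and AT3G15520 passed as falls at the first step (limma, adjusted p 0.0022 and 0.018). AT2G43560 and AT3G10060, both of the FKBP type, were lowest in small polysomes, a shape of 4.63% of all genes. The first step of AT2G43560 did not pass with cyclic loess (limma, adjusted p 0.052) or without replicate 1 (0.091) or 2 (0.06). AT1G76450 and AT5G46390 fell from non-polysomal to small polysomal RNA with no called step after it (10.2%). AT2G28605 fell between small and large polysomes alone (10.1%), and AT3G60370 fell at both steps (14.4%). AT1G77090, AT1G18170 and AT5G52970 passed at neither step (16.5%). With the extract as a replicate block, AT5G52970 passed at both steps (limma, adjusted p 0.033 and 0.030). With the same block AT1G77090 and AT5G46390 passed between small and large polysomes (0.026 and 0.041), which made 16 of the 18 called there (68.1% of all genes).

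The transcript level through the day was taken as the mean of the 3 fractions of an extract. A lower level can arise from fewer cells making a transcript or from less of it per cell, which cannot be told apart in bulk RNA. Against night (ZT18), 8 of the 18 genes were higher at midday (ZT6) and 0 were lower in limma's test. Of all genes 20.3% were higher, 17.6% lower and 37.9% called in either direction. At an unadjusted p under 0.05 there were 10 higher and 2 lower, against 47.1% of all genes in either direction. The median difference of the 18 was 0.35 and that of all genes 0.01. The genes called higher were PSB27, 1 of 3 PsbP-domain genes, 3 of 6 FKBP-type genes, both pentapeptide-repeat genes and AT5G52970, 1 of 3 remaining lumen genes. Neither protease passed, nor did the cyclophilin-type gene.

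AT1G77090, of the PsbP-domain family, changed most. Its 3 extracts at ZT6 read 9.78, 9.65 and 9.31 (log2). Those at ZT18 read 8.20, 7.79 and 7.91. All midday values lay above all night values, and the extracts of ZT0 (8.88, 8.82 and 8.67) and ZT12 (8.96, 8.52 and 8.35) lay between. The difference was 1.61 ± 0.18 (SE, 3 extracts a time), or 3.05-fold, with an adjusted p of 1.6e-05 in limma.

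AT3G10060, of the FKBP type, read 10.2, 10.3 and 9.89 at ZT6. At ZT18 it read 9.32, 8.94 and 8.76, with no overlap. Its values at ZT0 (9.48, 9.30 and 9.31) and ZT12 (9.60, 9.07 and 9.20) lay below all those of midday and partly within the range of night. The difference between ZT6 and ZT18 was 1.12 ± 0.18, or 2.17-fold (limma, adjusted p 0.00032).

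PSB27 had closer replicates than either of these genes. It read 13.0, 12.9 and 13.0 at ZT0 and 13.4, 13.3 and 13.3 at ZT6. It read 12.8, 12.7 and 12.8 at ZT12 and 12.2, 12.2 and 12.4 at ZT18. The 4 times did not overlap, with midday highest and night lowest. The difference between ZT6 and ZT18 was 1.04 ± 0.11, or 2.05-fold (limma, adjusted p 9.7e-06).

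The other genes called higher at ZT6 were AT2G44920 by 0.98 ± 0.19, AT2G43560 by 0.89 ± 0.18, AT5G53490 by 0.61 ± 0.20, AT1G20810 by 0.59 ± 0.15 and AT5G52970 by 0.46 ± 0.17. AT5G53490 was the only one of the 8 whose values overlapped between the times. Its call and that of AT5G52970 were the weakest (adjusted p 0.030 and 0.046 in limma) and ended with cyclic loess (0.052 and 0.11), and likewise when dim genes were kept in (0.085 and 0.087). Among genes that did not pass, AT5G13410 differed by 0.39 ± 0.16, AT3G60370 by 0.31 ± 0.13, AT1G18170 by -0.41 ± 0.15 and AT4G24930 by -0.35 ± 0.14. Without regard to the test, 10 of the 18 had every ZT6 value above every ZT18 value (26.6% of all genes) and 2, AT1G18170 and AT4G24930, had every one below (24%).

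**Figure D3:**
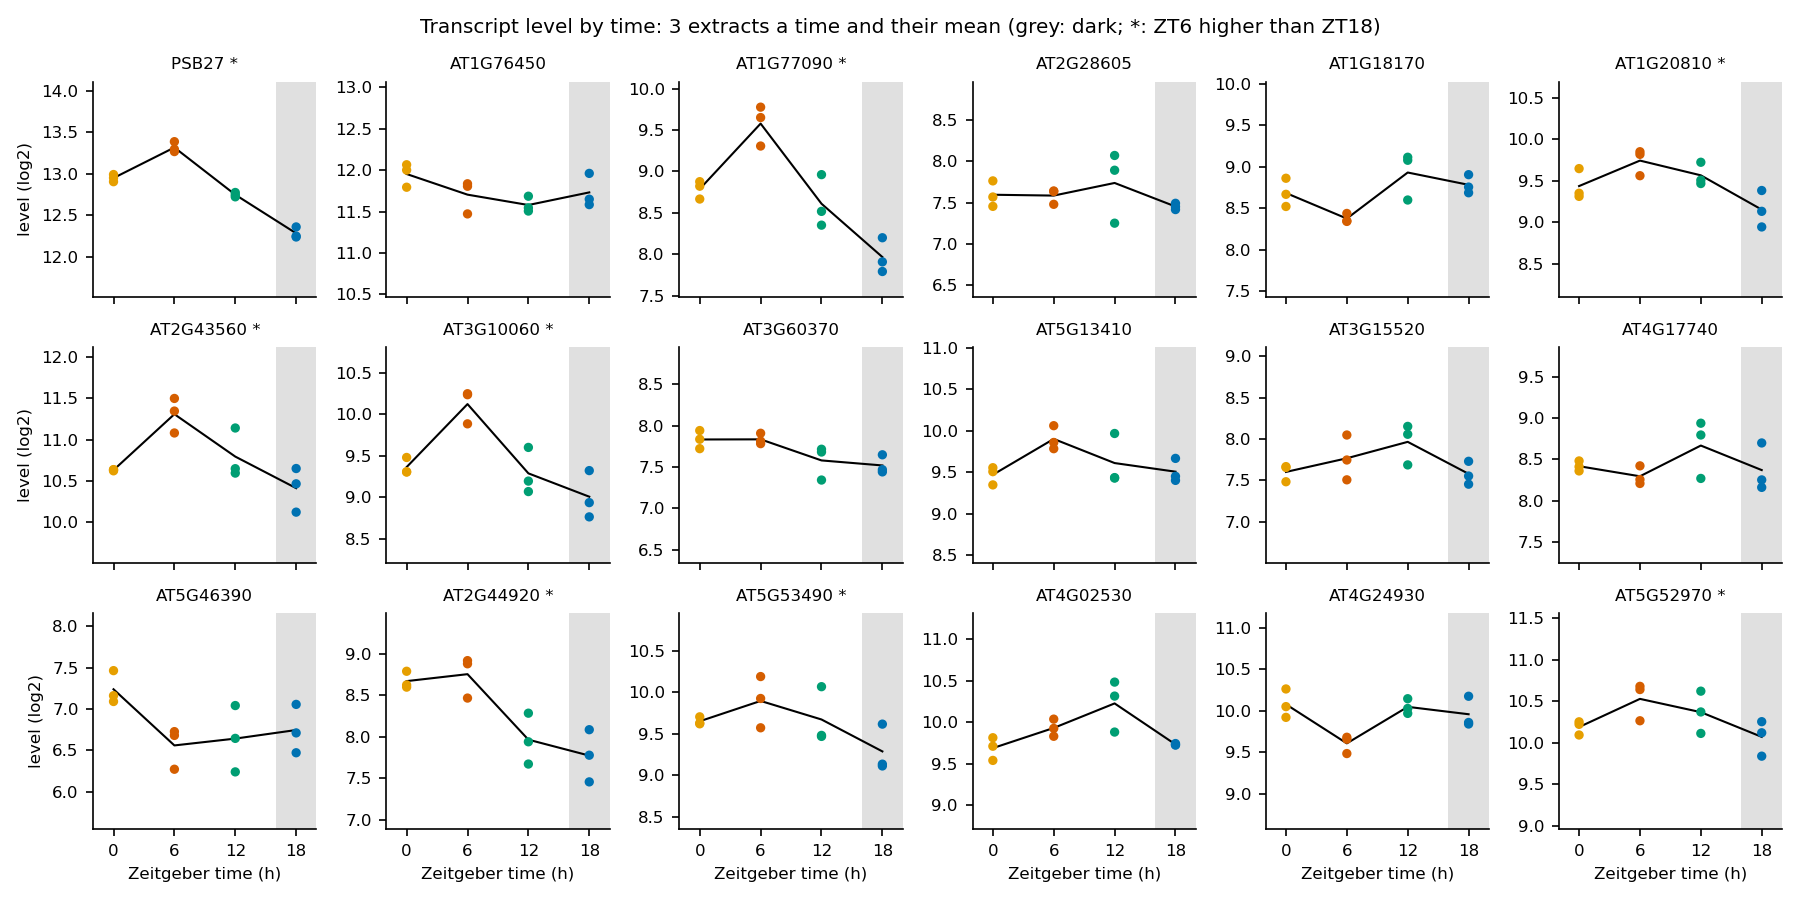
Points are the level of each extract (mean log2 of its 3 fractions) against Zeitgeber time in hours, lines join the means of 3 extracts, grey marks the dark, and each panel spans the same log2 range. AT1G77090, AT3G10060 and PSB27 peak at ZT6 and are lowest at ZT18, whereas AT1G18170 and AT4G24930 are lowest at ZT6.

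The extracts of ZT18 were uneven. Plastid-encoded transcripts (69 genes) averaged 7.22, 10.6 and 9.48 in its replicates 1, 2 and 3, against 7.46, 8.58 and 8.31 at ZT6. Poly-A controls averaged 5.91 ± 0.70 (SD, n = 3) at ZT18 and 4.79 ± 0.13 at ZT6. PYK10 averaged 9.49 at ZT18 and 10.4 at ZT6. The part of these in the midday to night differences was not tested. Without replicates 2 and 3 of ZT18 that time has 1 extract, so only differences are given. AT2G44920 then differed by 0.67, against 0.98 with all extracts, and AT2G43560 by 0.66, against 0.89. AT1G20810 differed by 0.36, against 0.59. AT5G53490 differed by 0.28, against 0.61, and AT5G52970 by 0.275, against 0.46. The values of AT1G77090, AT3G10060 and PSB27 in this setting are not given here. Without replicate 2 throughout, the 8 calls came to 5, with fewer samples at each time. The share of all genes called in that run is not given here. Compared within replicate numbers 1, 2 and 3, the median of the 18 was 0.36, 0.46 and 0.28, with 13, 14 and 13 of the 18 above 0. The share of all genes was not computed. All 8 called genes were above 0 in 3 of 3. They were called on these same extracts, so this is no separate support.

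The other pair of times that lie 12 h apart, ZT12 and ZT0, separated fewer of these genes. AT4G02530 was higher at ZT12 (18.4% of all genes were), AT2G44920 and AT5G46390 were lower (18.4%) and 15 did not pass; 36.8% of all genes were called in either direction. AT4G02530, the high-light repair gene, read 9.71, 9.54 and 9.81 at ZT0 and 10.5, 10.3 and 9.88 at ZT12, without overlap. The difference was 0.54 ± 0.15 (limma, adjusted p 0.014). AT2G44920, a pentapeptide-repeat gene, read 8.62, 8.60 and 8.79 at ZT0 and 8.28, 7.94 and 7.67 at ZT12, again without overlap. It fell by 0.71 ± 0.19 (limma, adjusted p 0.012). Without regard to the test, 2 of the 18 had every ZT12 value above every ZT0 value (24.1% of all genes) and 5 had every one below (23.5%).

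The protease gene AT5G46390 read 7.16, 7.46 and 7.09 at ZT0 and 6.65, 6.24 and 7.04 at ZT12. Replicate 3 of ZT12 came close to the ZT0 values. The difference was -0.59 ± 0.21 (limma, adjusted p 0.044), and it did not pass without replicate 1 (0.11) or replicate 2 (0.43). The call of AT4G02530 ended without replicate 1 (0.15) and without replicate 2 (0.17), and that of AT2G44920 without replicate 3 (0.15). None of these 3 calls therefore held when each replicate number was left out in turn.

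Asked whether the level differed at any of the 4 times, limma's F test called 9 of the 18 (58.1% of all genes). These were PSB27, AT1G77090, AT1G18170, AT1G20810, AT2G43560, AT3G10060, AT2G44920, AT4G02530 and AT4G24930. The widest ranges between time means were those of AT1G77090 (1.61), AT3G10060 (1.12) and PSB27 (1.04), given by extract above. The median range of the 18 was 0.55, against 0.63 for all genes. Of the 18, 10 had their highest mean at ZT6 (25.3% of all genes), 5 at ZT12 (20.8%), 3 at ZT0 (31.3%) and 0 at ZT18 (22.5%). The lowest mean fell at ZT18 in 11 (27.9% of all genes). AT1G18170, AT4G17740, AT5G46390 and AT4G24930, in contrast, had their lowest mean at ZT6. Without replicate 2 the 9 calls came to 4, and without replicate 1 to 5. In 15 runs with extracts or replicate numbers left out, the calls of AT1G18170 and AT4G24930 held in 6 each. That of AT1G20810 held in 8, that of AT4G02530 in 9 and that of AT2G43560 in 14. Those of PSB27, AT1G77090, AT3G10060 and AT2G44920 held in all 15.

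The midday difference was also read in each fraction alone, a comparison added after the levels were seen. It shows whether transcripts outside and in polysomes moved alike. In non-polysomal RNA 8 of the 18 were higher at ZT6 than at ZT18 (20.1% of all genes) and 1 was lower (13.8%). In small polysomal RNA 5 were higher (15.8%), and in large polysomal RNA 7 (15.4%). By limma 0 were lower in small (12.8%) or in large polysomes (16.5%), and at an unadjusted p under 0.05 AT1G18170 was, in each. PSB27, AT1G77090, AT2G43560, AT3G10060 and AT2G44920 were higher in all 3 fractions. AT1G77090 differed by 1.50, 1.64 and 1.68 in non-polysomal, small and large polysomal RNA, and PSB27 by 1.12, 1.14 and 0.85. AT3G10060 differed by 0.87, 1.14 and 1.34 in the same order.

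Some genes passed in non-polysomal RNA alone. AT4G24930 was lower there at ZT6, by a difference of -0.72 ± 0.18 (SE; limma, adjusted p 0.0019), and read -0.21 ± 0.18 and -0.12 ± 0.18 in small and large polysomal RNA. AT5G13410 was higher there by 0.69 ± 0.22 (adjusted p 0.016) and read 0.17 ± 0.22 and 0.32 ± 0.22 in the polysomal fractions. Between ZT12 and ZT0, AT5G46390 differed by -1.10 ± 0.30 in non-polysomal RNA (adjusted p 0.0054), by -0.68 ± 0.30 in small and by -0.01 ± 0.30 in large polysomal RNA. These values come from the fit over 36 arrays. Fitted on the 12 arrays of a fraction alone, an alternative chosen after seeing the data, AT5G46390 did not pass in non-polysomal RNA (adjusted p 0.055) and passed in small polysomal RNA (0.041). In the same fits of non-polysomal RNA, ZT6 against ZT18 gave AT4G24930 an adjusted p of 0.036 and AT5G13410 one of 0.057 in limma. Whether such fractions differ is the test of loading against time.

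**Figure D4:**
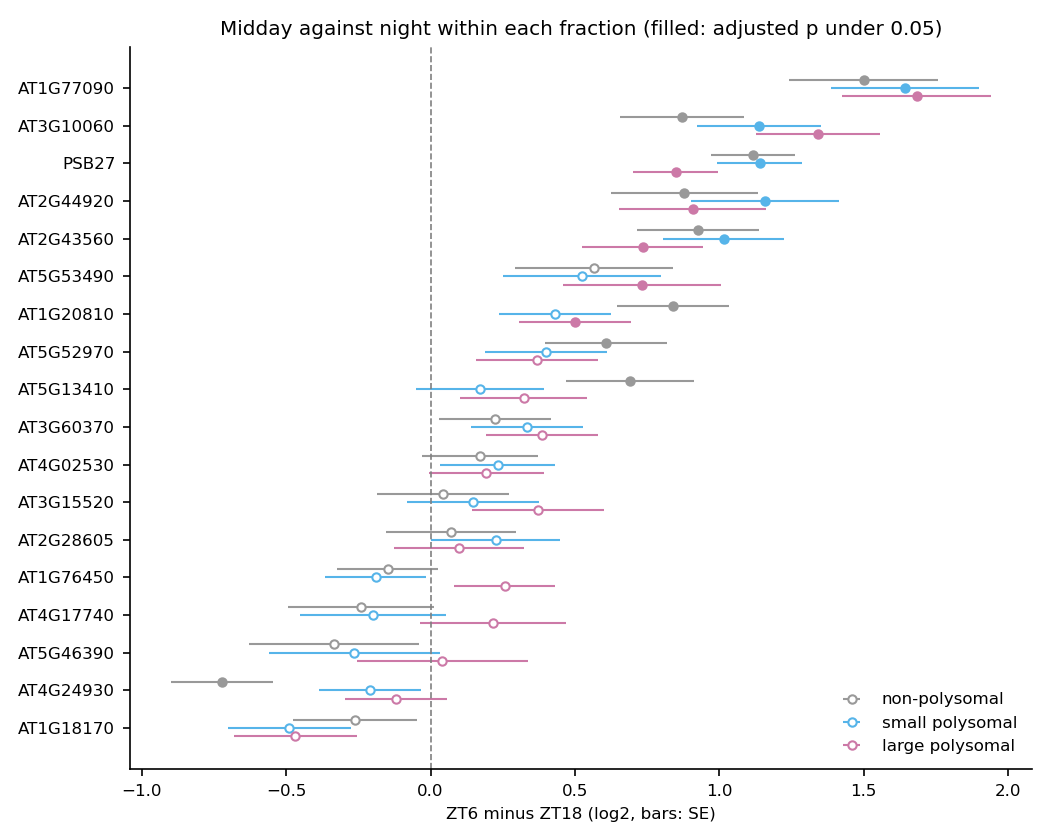
Points give the log2 difference of ZT6 minus ZT18 in each RNA fraction (3 arrays a time, bars SE), filled where limma's adjusted p was under 0.05, with genes ordered by their level difference. PSB27, AT1G77090, AT2G43560, AT3G10060 and AT2G44920 are filled in all 3 fractions, and AT4G24930 is lower at ZT6 in non-polysomal RNA.

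Loading itself, large polysomal minus non-polysomal RNA within an extract, was called to differ between times in 0 of the 18 genes in limma, with or without the extract as a replicate block. The share of all genes called was 5.04% for ZT6 against ZT18, 0.146% for ZT12 against ZT0 and 2.85% over the 4 times, and with the block 14.3%, 0.774% and 11.2%. At an unadjusted p under 0.05 the counts were 1, 2 and 0 of the 18, against 20.4%, 6.84% and 15.8% of all genes. With the block they were 2, 2 and 2, and the share of all genes was not computed. AT4G24930 had a loading of 1.33, 0.73 and 1.09 in the 3 extracts of ZT6 and of 0.34, 0.55 and 0.46 in those of ZT18. These did not overlap. Of the 18, 3 had every loading of ZT6 above every one of ZT18 (13.6% of all genes) and 2 had every one below (20.6%). For AT4G24930 the difference was 0.60 ± 0.25 (SE, 95% interval 0.09 to 1.11, limma, adjusted p 0.16, or 0.071 with the block).

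AT5G46390 had a loading of -1.56, -1.73 and -1.14 at ZT0 and of -0.05, 0.26 and -1.37 at ZT12. Replicate 3 of ZT12 overlapped with ZT0. The difference was 1.09 ± 0.42 (95% interval 0.23 to 1.94; limma, adjusted p 0.51). AT1G20810 differed by -0.61 ± 0.27 between the same times (adjusted p 0.68). Over the 18 genes the 95% intervals of these differences, unadjusted for the number of genes, reached 0.42 to 0.85 to either side, and 0.42 to 0.65 with the block.

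Other genes of the same biology were read from lists of their own. Of all genes tested, 40.2% were higher and 37.5% lower in large polysomes. At ZT6 against ZT18 these shares were 20.3% and 17.6%, and at ZT12 against ZT0 18.4% each way. They stand beside every count of these lists. Of 24 further genes for lumen proteins 12 were tested. In large against non-polysomal RNA 5 were higher and 6 lower (median -0.21), from AT1G74070 at 1.21 ± 0.10 to AT4G19830, an FKBP-type gene, at -1.79 ± 0.12. At midday 8 of the 12 were higher than at night and 1 was lower (median 0.49). AT3G57680, a processing protease, was higher by 1.43 ± 0.21, and LPA19, a relative of PSB27, was lower at -0.65 ± 0.21. Between ZT12 and ZT0, 2 were higher and 4 lower, from AT2G36145 at 1.22 ± 0.16 to LPA19 at -0.79 ± 0.21.

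Of 9 genes for lumen protein import 2 were tested, and both were higher in large polysomes (40.2% of all genes) and at midday (20.3%). SECE1, a subunit of the thylakoid Sec channel, was higher in large polysomes by 2.03 ± 0.13 and at ZT6 by 0.58 ± 0.18. AT5G28750, of the Tat pathway, was higher by 0.52 ± 0.15 and 0.74 ± 0.23. The 3 tested of 7 nuclear genes for membrane subunits of photosystem II were likewise higher in both comparisons. PSBY led with 1.66 ± 0.09 in large polysomes and 1.24 ± 0.13 at midday.

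The 3 tested of 12 nuclear genes for the NDH complex were split, with NdhN higher in large polysomes by 1.40 ± 0.13 and NdhL lower at -0.59 ± 0.11. NdhS, also lower there, was the gene of this list that passed at midday, higher by 0.95 ± 0.12. Of 14 genes for photosystem II assembly and repair 3 were tested. LPA1 and LPA2 were higher in large polysomes, LPA2 by 1.26 ± 0.09, and PAM68 did not pass. LPA2 was lower at midday, at -0.57 ± 0.14, against the direction of PSB27.

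**Figure D5:**
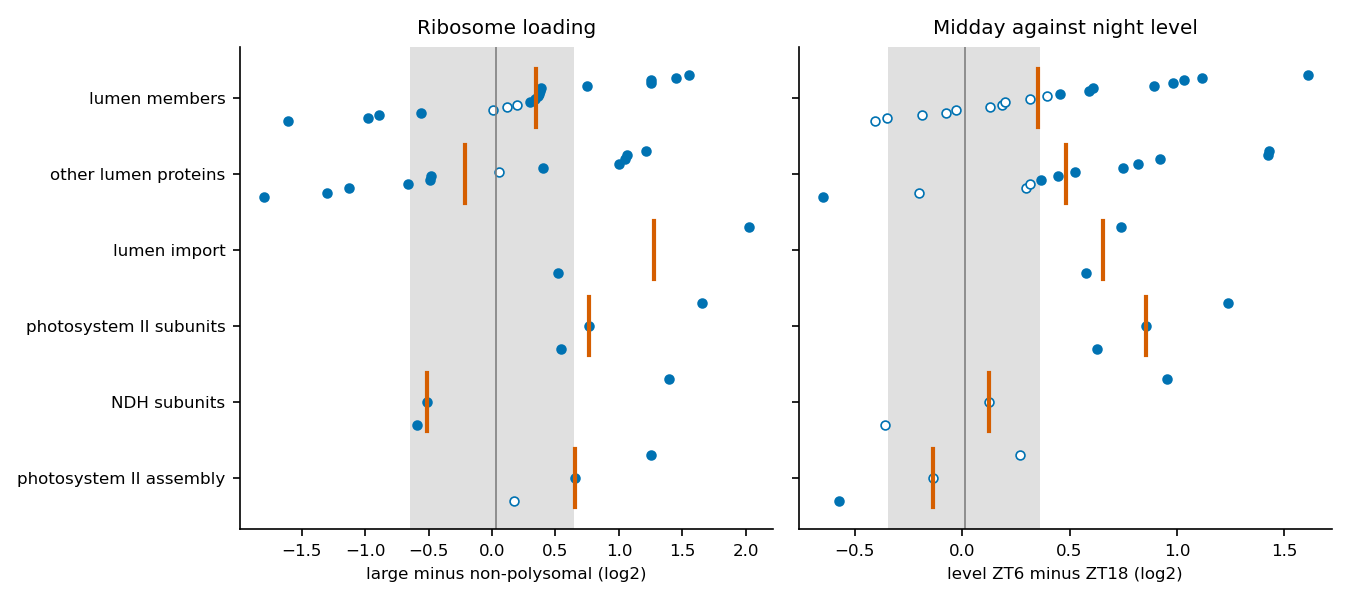
Points are genes of each list, filled where limma's adjusted p was under 0.05, against the large minus non-polysomal difference and the ZT6 minus ZT18 level difference (log2). Orange bars are list medians and the grey band is the middle 50% of all genes tested, and the 18 lumen genes have medians of 0.35 in both panels.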

How the data were processed

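RNA of 36 arrays was primed with oligo(dT), per the labels' protocols. The authors deposited 1 log2 value per probe set and array. Per the submitters' processing notes, R 3.1, affy 1.42.3 and GCRMA were used, with settings not given in the sources used here. The values are alike in distribution on all arrays, as if normalised between arrays, so total mRNA per fraction is not seen. Precision is limited by the number of arrays.

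Of 22810 probe sets (64 controls), the probe table paired 13513 with 1 gene and 503 with several and did not list 8730. The brightest single-gene probe set stood for a gene, and 6846 genes with a mean of at least 4 were tested. Of these 6823 matched the RefSeq gene table, which gave symbols; genes without one keep their AGI code, and protein classes are background knowledge.

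Fractions were fitted over 36 arrays in 12 groups, and levels over 12 extracts, with limma 3.58.1 (R 4.3.3), 2-sided, with Benjamini-Hochberg adjustment over all genes at 0.05. The SEs of differences between fractions come from the fit of 36 arrays, which does not pair the fractions of an extract. The method was checked on simulated data. ZT6 and ZT18, and ZT12 and ZT0, share no arrays. Deviations from group means correlated between the fractions of an extract in all 36 pairs (r 0.13 to 0.68), so replicate numbers pair the fractions, and for differences between fractions and for loading the block is named where it changed a call. Alternatives covered scaling, filters, variance, blocking and left-out replicates.

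The genes and lists were chosen with earlier results of these data known. Values by extract are given per direction for the 2 called genes that changed most and moved alike in every pair of values, and for the 3 with the widest range over the 4 times; of further lists the counts and the largest called changes are given. Pairs of PSBQ, PSBP and PSBO genes in that rule are not analysed here. The loadings by extract of AT4G24930 and AT5G46390, which were not called, fall outside that rule. Other genotypes in the series' design were not used here.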

Additional observations from a re-analysis of the deposited data

How the results depend on the processing

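No called value reversed its direction under any alternative run. Values near 0 that did not pass could change sign, such as AT5G52970 between large and non-polysomal RNA (-0.03 to 0.06 with replicates left out). The count of lumen genes called between large and non-polysomal RNA was 15 and ran from 14 to 16 when replicates were left out. Between small polysomal and non-polysomal RNA it was 10, with 6 to 10, and between large and small polysomes 13, with 12 to 14. For ZT6 against ZT18 it was 8, with 5 to 8, and for ZT12 against ZT0 it was 3, with 1 to 5. Over the 4 times it was 9, with 4 to 11. Without replicates 2 and 3 of ZT18 that time has 1 extract, and no count is given. Alternatives chosen after seeing the data took the level from 1 fraction. Then ZT6 against ZT18 gave 5 from small polysomal RNA, ZT12 against ZT0 gave 0 from non-polysomal and 1 from small polysomal RNA, and the 4 times gave 5 from large polysomal RNA. Loading against time gave 0 under every alternative run. Runs with replicates left out have fewer samples, and the shares of all genes called in these alternatives are not given here. The causes were not tested beyond the smaller number of samples.

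For single genes 3143 of the planned values kept their side of the threshold, 122 lost a call and 47 gained one. Between large and non-polysomal RNA, the calls of all but AT2G43560, AT3G10060 and AT4G17740 held under every alternative run. For levels, extracts of the same replicate number at different times correlated above 0.1 in 13 of 18 pairs, and an extract correlated best with its own number in 22 of 36 cases. With the replicate block, 10 of the 18 were called for ZT6 against ZT18 (41.3% of all genes). For ZT12 against ZT0 it was 3 (38.7%), and over the 4 times 11 (60.7%). For ZT6 against ZT18 the block added AT5G13410 (limma, adjusted p 0.033) and AT4G24930 (0.049). For ZT12 against ZT0 it added AT1G76450 (0.034) and ended the call of AT5G46390 (0.055), and over the 4 times it added AT5G13410 (0.048) and AT5G53490 (0.018). Cyclic loess moved the median of all genes by -0.12 between large and non-polysomal RNA. Only 3 extracts a time limit small changes.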

Other observations

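Replicate 1 read high for the lumen genes at every time. Counting each of the 18 genes at each of the 4 times, replicate 1 had the highest level of the 3 extracts in 53 of 72 cases (73.6%), against 38.6% over all genes tested. The median level of the 18 was 9.49, 9.31 and 9.33 in replicates 1, 2 and 3 of ZT0, and 9.35, 8.94 and 8.94 in those of ZT18. Plastid-encoded transcripts, which come from the organelle that these proteins enter, were lowest in replicate 1 at every time, with 7.79, 9.14 and 8.63 at ZT0 and 7.60, 8.74 and 9.30 at ZT12 in replicates 1, 2 and 3. The labels do not say what the replicate numbers share, and a cause was not tested.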
